A study of Mus musculus with 6 samples.

Results

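The genes described here are called core spliceosome genes. Most of them encode protein parts of the small nuclear ribonucleoproteins (snRNPs) or of the factors that load snRNPs onto introns. All were chosen by symbol, which had to start with *Snrp*, *Sf3a*, *Sf3b*, *U2af* or *Prpf*, or with *Lsm* followed by a digit. *Prpf4b* and symbols that end in -ps were not taken. The rule also takes in genes that work outside the spliceosome, such as *Lsm10*, *Lsm11*, *Lsm14a* and *Lsm14b*. The rule named 49 of the 23183 gene symbols in the data, and 48 of them reached an FPKM (fragments mapped to a gene, per kilobase of its transcript and relative to the library's depth) of 1 or more in at least 3 of 6 libraries, as did 10326 genes in all. The one gene left out was *Snrpn*, the neuronal Sm gene, which was listed at 0 in 5 libraries and at 0.0285 in WT 2. The libraries came from sorted CD4+CD8+ double positive (DP) thymocytes, the immature T cells of the thymic cortex, of C57BL/6 mice aged 6 weeks. WT mice carried the floxed *Nsrp1* f/f alleles without Cre, and NSrp70-cKO mice carried the same alleles with CD4Cre, a transgene that deletes floxed sequence from about the DP stage on. WT cells therefore lack the Cre transgene as well as the deletion, and neither the labels nor the study's methods say whether the 3 libraries of a genotype came from separate mice, so the p-values measure the spread between libraries, which may be technical.

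NSrp70, the protein of *Nsrp1*, is an RNA-binding protein of the nuclear speckles that changes the choice of splice sites. A spliceosome is built anew on each intron: the U1 snRNP pairs with the 5′ splice site, U2AF binds the pyrimidine tract and the AG at the intron's end, the U2 snRNP with its SF3A and SF3B complexes clamps the branch site, and the U4/U6.U5 tri-snRNP then joins and is rearranged for catalysis. U1, U2, U4 and U5 RNAs each carry a ring of Sm proteins, and U6 RNA carries a ring of Lsm proteins instead. In the thymus these proteins are general machinery, needed in every dividing and resting cell.

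The depth behind the FPKM values was estimated from the steps that a single fragment makes in low values. It was 20.5 to 20.6 M fragments in the WT libraries and 13.1, 20.5 and 17.3 M in cKO 1, 2 and 3 (M, mega). This is the mapped depth only if the FPKM were not also scaled between libraries, which the sources do not state. *Nsrp1*, listed as *Ccdc55*, had an FPKM of 20.2, 20.7 and 21.1 in WT and of 17.7, 15.8 and 15.0 in cKO (log2 fold change -0.34, adjusted p = 0.00675, limma with Benjamini-Hochberg adjustment), and a value per gene does not separate the deleted exons from the rest. The libraries differed by genotype in further ways, whose part in the results below was not tested. Pairs of WT libraries differed little more than counting noise predicts (mean chi-square per gene 1.45 to 1.58), against 33.0 to 75.4 for pairs of cKO libraries. *Xist* lay between 69.8 and 72.0 in WT and between 4.07 and 5.44 in cKO, and *Ddx3y*, *Eif2s3y*, *Kdm5d* and *Uty* had no signal in any WT library (listed at 0) and 5.83 to 43.8 in cKO, so that the sex of the animals and the genotype cannot be told apart. All 16 genes of a list of cycling-cell genes rose (median log2 fold change 1.06), with a summed FPKM of 1424 to 1430 in WT and 2788 to 3205 in cKO. Of 5 markers of mature single positive T cells, 4 fell and 1 rose (summed FPKM 112 to 115 in WT and 98.1 to 120.0 in cKO), while 5 of 7 DP markers rose and 1 fell. The defining DP genes were present throughout, with 7 markers summing to 4280 to 4310 in WT and 5360 to 6950 in cKO. The 4 erythroid markers summed to 1.96 to 2.72 in WT and 12.3 to 26.6 in cKO, whereas the sums of the double negative thymocyte, B cell, myeloid and thymic epithelium markers overlapped between the genotypes, although 2 of the 3 double negative markers tested fell, and *Krt5* of the epithelium was at 0 in every library. In such bulk samples a lower value can mean fewer cells of a type or less RNA per cell, and these cannot be told apart.

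Most core spliceosome genes were higher in cKO than in WT DP thymocytes, but 2 of the 3 SF3A genes and a few others went the other way. Of the 48 genes, 33 rose and 7 fell at an adjusted p under 0.05 in a limma fit of log2(FPKM + 1) over all 10326 genes with Benjamini-Hochberg adjustment, against 35.8% of all tested genes that rose and 29.8% that fell. The 7 that fell were *Sf3a1*, *Sf3a2*, *Sf3b4*, *Lsm11*, *Lsm14b*, *Prpf38b* and *Prpf40b*, of which *Lsm11* and *Lsm14b* work outside the spliceosome. *Prpf40b* reached the FPKM minimum in the WT libraries only, so the filter favoured its place among the genes that fell or lay below WT. The median log2 fold change was 0.51 over the 48 genes and 0.04 over all genes tested. The changes were mostly below 2-fold: 4 genes rose by a log2 fold change of 1 or more (*Snrpd1*, *Snrpd2*, *Sf3b5* and *Prpf31*) and 1 fell by as much (*Lsm14b*), on a scale that understates the change of low genes such as *Prpf40b*. All 3 cKO libraries lay above all 3 WT libraries at 34 genes and below them at 7, where 39.1% and 33.4% of all tested genes did so, and 7 genes overlapped. The genes are also abundant, with a median WT FPKM of 64.6 against 14.6 over all tested genes. Their summed FPKM was 4629 to 4710 in the WT libraries and 6833, 7409 and 8401 in cKO 1, 2 and 3.

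**Figure D1:**
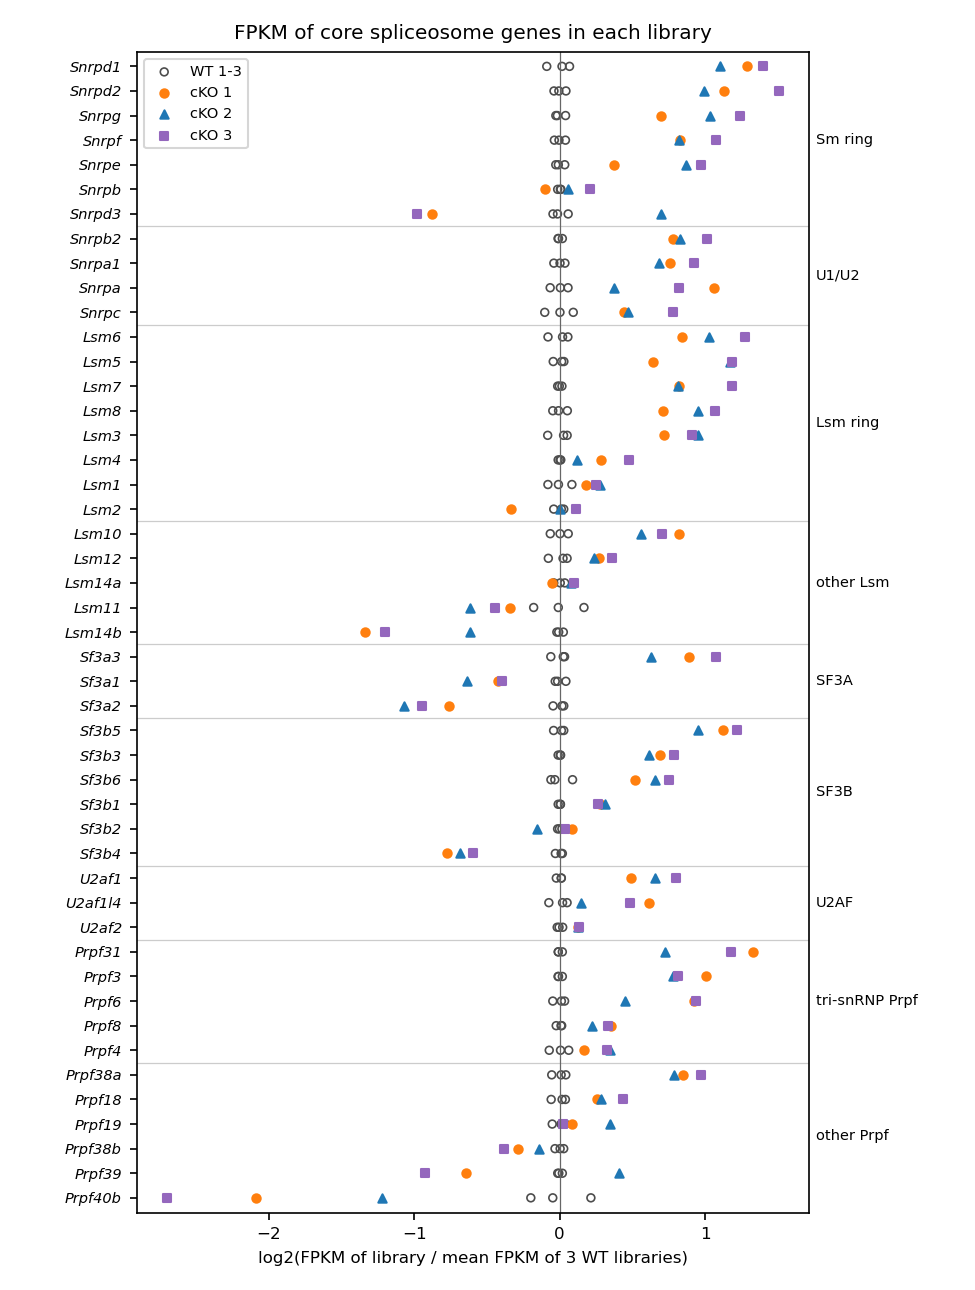
Each row is 1 of the core spliceosome genes (1 of the 48 is not drawn), grouped by complex, and each point is 1 library, placed by the log2 ratio of its FPKM to the mean of the 3 WT libraries. The WT libraries (open circles) cluster at 0, the cKO libraries (filled) lie to the right for most Sm, Lsm ring and tri-snRNP genes and to the left for *Sf3a1*, *Sf3a2*, *Sf3b4* and *Lsm14b*, and cKO 2 stands apart at *Snrpd3* and *Prpf39*.

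These counts depend on how the libraries are scaled and counted. The FPKM totals were 521296 to 531517 in WT and 791104, 701396 and 850548 in cKO, and when all libraries were scaled to the same FPKM total the median of all tested genes moved to -0.45. At that scaling 16 of the 48 genes rose and 20 fell, against 8.74% and 59.9% of all genes, and their median was -0.04, still 0.41 above that of all genes. With the mean of the 3 WT libraries standing as a single sample, 14 rose and 2 fell, against 7.21% and 8.73% of all genes. The 14 were *Snrpd1*, *Snrpd2*, *Snrpf*, *Snrpb2*, *Snrpa1*, *Lsm3*, *Lsm6*, *Lsm7*, *Lsm8*, *Prpf3*, *Prpf31*, *Prpf38a*, *Sf3b3* and *Sf3b5*, and the 2 were *Sf3a2* and *Sf3b4*. Besides genes whose direction turned, the same FPKM total removed the calls of *Prpf6*, *Sf3b3*, *Sf3b6*, *Snrpe*, *Snrpa*, *Snrpc*, *U2af1* and *Lsm10*. Quantile normalization removed those of *Prpf8*, *Snrpe*, *Snrpg*, *Snrpc*, *U2af1*, *U2af1l4* and *Lsm11*.

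The Sm ring is the shared core of the U1, U2, U4 and U5 particles, and 5 of its 7 genes rose, with a median log2 fold change of 0.90. *Snrpd1* had an FPKM of 119, 128 and 132 in WT 1, 2 and 3 and of 308, 271 and 333 in cKO 1, 2 and 3, a log2 fold change of 1.26 (SE 0.10, adjusted p = 0.000147 from limma with Benjamini-Hochberg adjustment, as for every adjusted p below). Its partner *Snrpd2*, whose protein binds SmD1 before the ring closes, had 414, 405 and 429 in WT and 912, 828 and 1182 in cKO (log2 fold change 1.21, SE 0.14, adjusted p = 0.000519). The mean FPKM was 2.41-fold higher in cKO for *Snrpd1* and 2.34-fold for *Snrpd2*, with every cKO library far above WT. The genes of the SmE, SmF and SmG proteins, which assemble as a trimer, also rose. *Snrpg*, the most abundant of the 48 genes, had an FPKM of 618, 623 and 647 in WT and 1019, 1286 and 1488 in cKO (log2 fold change 0.99). *Snrpf* had 113, 119 and 115 in WT and 204, 204 and 244 in cKO (log2 fold change 0.90). *Snrpe* had 443, 438 and 457 in WT and 577, 814 and 876 in cKO (log2 fold change 0.73). The adjusted p of these 3 genes lay between 0.0003 and 0.00564, and cKO 3 was the highest library for each.

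The remaining Sm genes, *Snrpb* and *Snrpd3*, encode the SmB and SmD3 proteins that bind each other, and neither was called. *Snrpb* had an FPKM of 213, 213 and 210.0 in WT and 197, 221 and 245 in cKO, so that the groups overlapped (log2 fold change 0.05, SE 0.09, adjusted p = 0.633). *Snrpb* was called lower when libraries were scaled to the same FPKM total (-0.51, adjusted p = 0.00215) and with quantile normalization (-0.43, adjusted p = 0.00361). After correction for GC content and length it was called higher (0.28, adjusted p = 0.0323). *Snrpd3* had 122, 119 and 128 in WT but 67.1, 199 and 62.4 in cKO 1, 2 and 3. At *Snrpd3*, cKO 2 was above every WT library while cKO 1 and 3 were well below, and without cKO 2 the log2 fold change was -0.91 (adjusted p = 3.99e-05) in place of -0.38 (adjusted p = 0.434). The exons of *Snrpd3* share bases with *Gucd1* on the opposite strand, and as the strand setting of the authors' counting is not stated, reads of the 2 genes may not have been separated. As shares of the summed FPKM of the ring, *Snrpb* went from 10.2% (mean of WT) to 5.77% (mean of cKO) and *Snrpd3* from 5.95% to 2.89%, whereas *Snrpd2* went from 20.1% to 25.4%.

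**Figure D2:**
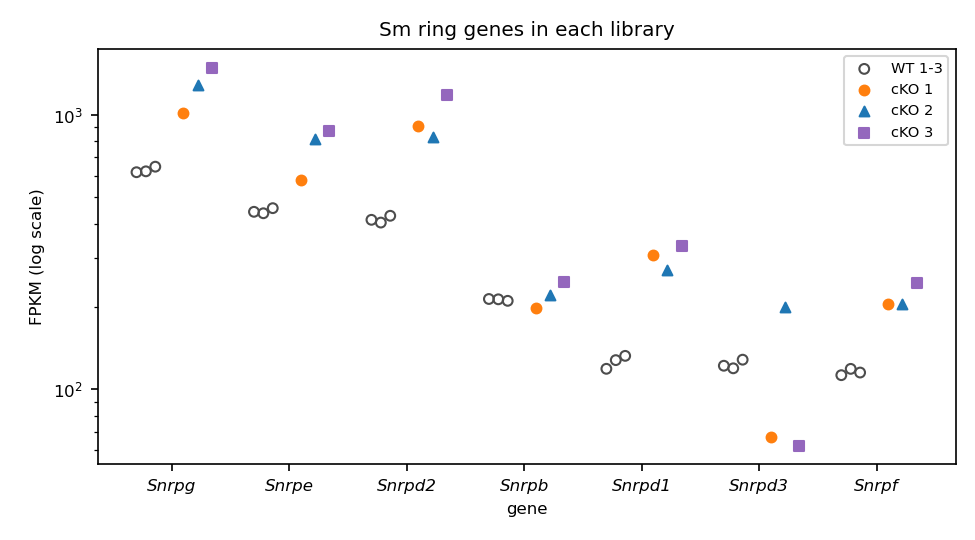
FPKM (log scale) of the 7 Sm ring genes in each library, ordered by WT level. The 3 cKO libraries lie above WT at 5 genes, surround it at *Snrpb*, and split at *Snrpd3*, with cKO 2 at 199 and cKO 1 and 3 at 67.1 and 62.4 around a WT level of 119 to 128.

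The 4 *Snrp* genes of proteins that belong to the U1 or the U2 particle alone all rose. The U1 gene *Snrnp70*, whose symbol falls outside the rule, fell (log2 fold change -0.66), as did *Sf3a1* and *Sf3a2* of U2, given below. *Snrpa*, which encodes the RNA-binding A protein of U1, had an FPKM of 68.5, 66.0 and 62.9 in WT and 137, 85.4 and 116 in cKO (log2 fold change 0.74), with cKO 2 the lowest of the cKO libraries. *Snrpc*, which encodes the C protein of U1 at the 5′ splice site, had 118, 126 and 110.2 in WT and 160.4, 164 and 203 in cKO (log2 fold change 0.56), the smallest change of the 4. *Snrpa1*, the gene of the A′ protein of U2, had 47.6, 50.2 and 49.0 in WT and 82.8, 78.6 and 93.0 in cKO (log2 fold change 0.78). These 3 genes had no overlap between the genotypes. *Snrpb2*, the gene of the B″ protein that pairs with A′ on U2 RNA, had 80.9, 79.4 and 79.2 in WT and 137, 141 and 161 in cKO (log2 fold change 0.86, SE 0.08). The adjusted p of the 4 genes ranged from 0.000228 to 0.00636.

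The Lsm ring genes rose at 7 of 8 loci, with a median log2 fold change of 0.88. Lsm2 to Lsm8 form the nuclear ring on U6 RNA, and in the cytoplasm Lsm1 takes the place of Lsm8 in a ring that promotes decapping of mRNA. *Lsm8*, the nuclear subunit, had an FPKM of 76.6, 78.7 and 82.1 in WT and 129, 153 and 166 in cKO (log2 fold change 0.90, SE 0.10, adjusted p = 0.000392). Among the subunits common to both rings, *Lsm5* had 118, 124 and 123 in WT and 189.9, 274 and 276 in cKO (log2 fold change 0.99). *Lsm6*, the least abundant of the shared subunits, had 14.1, 13.8 and 12.9 in WT and 24.4, 27.7 and 32.9 in cKO (log2 fold change 0.996). Both genes therefore changed by a log2 fold change near 1 at very different levels. *Lsm7* had 131, 129.6 and 129 in WT and 229, 228 and 295 in cKO (log2 fold change 0.93), and *Lsm3* had 107, 99.5 and 109 in WT and 173, 204 and 198 in cKO (log2 fold change 0.85). The adjusted p of *Lsm3*, *Lsm5*, *Lsm6* and *Lsm7* lay between 0.0003 and 0.00108.

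The other 3 genes of the ring moved less. *Lsm4* and the cytoplasmic *Lsm1* rose by log2 fold changes of 0.29 and 0.22 (adjusted p = 0.0365 and 0.0258). Both were called lower, at -0.27 and -0.30 (adjusted p = 0.00751 and 0.0384), when libraries were scaled to the same FPKM total. The call of *Lsm4* was lost without any 1 library other than cKO 2, and that of *Lsm1* without WT 1, WT 2 or cKO 3. *Lsm2* had 40.3, 38.4 and 39.8 in WT and 31.3, 39.6 and 42.8 in cKO, with cKO 1 alone below WT, and was not called (log2 fold change -0.07, SE 0.11, adjusted p = 0.598). Within the summed FPKM of the 8 genes, *Lsm2* made up 6.31% to 6.60% in WT and 3.37% to 3.72% in cKO.

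The 5 Lsm genes outside these rings showed no common direction: 2 rose, 2 fell and 1 was not called. As 35.8% of all tested genes rose and 29.8% fell, such a mix is not particular to this group. Lsm10 and Lsm11 replace SmD1 and SmD2 in the U7 snRNP, which cuts the 3′ ends of histone pre-mRNAs, and their genes moved in opposite directions. *Lsm10* had an FPKM of 18.3, 16.8 and 17.6 in WT and 31.1, 25.8 and 28.6 in cKO (log2 fold change 0.66, adjusted p = 0.000669). *Lsm11*, the second least abundant of the 48 genes, had 4.44, 3.93 and 3.50 in WT and 3.12, 2.58 and 2.90 in cKO (log2 fold change -0.36, adjusted p = 0.0183), and it was no longer called without WT 1 or WT 2 or after correction for GC content and length. *Lsm14a* and *Lsm14b* encode related proteins of cytoplasmic mRNP granules that repress translation. *Lsm14b* fell from 47.3, 47.7 and 48.8 in WT to 19.0, 31.2 and 20.8 in cKO (log2 fold change -1.02, SE 0.17, adjusted p = 0.00165), with cKO 2 the least reduced. Its paralogue *Lsm14a* had 86.8, 89.6 and 91.5 in WT and 86.3, 94.3 and 95.7 in cKO and was not called (log2 fold change 0.04, adjusted p = 0.614), a value that turned to -0.51 at the same FPKM total, to -0.28 with quantile normalization and to -0.27 after correction for GC content and length. *Lsm12* rose by a log2 fold change of 0.28, was at -0.26 at the same FPKM total, and was not called without WT 1 or after correction for GC content and length (0.10).

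SF3A, a complex of 3 proteins that completes the U2 particle, had 2 genes that fell and 1 that rose. *Sf3a2*, which encodes the SF3a66 subunit, had an FPKM of 66.5, 63.8 and 67.1 in WT and 38.9, 31.4 and 34.2 in cKO (log2 fold change -0.91, SE 0.09, adjusted p = 0.000292). *Sf3a1*, the gene of SF3a120, had 30.7, 32.3 and 31.1 in WT and 23.4, 20.2 and 23.8 in cKO (log2 fold change -0.47, SE 0.08, adjusted p = 0.00213). *Sf3a3*, the gene of SF3a60, had 64.5, 64.9 and 60.7 in WT and 117, 97.9 and 133 in cKO (log2 fold change 0.85, SE 0.12, adjusted p = 0.000843). No cKO library overlapped the WT range at any of the 3 genes, and all 3 kept their direction under every alternative that was run, although *Sf3a1* and *Sf3a3* were not called with WT as a single sample. *Sf3a2* and *Sf3a3* were at nearly the same level in WT, at 41.0% and 39.5% of the summed FPKM of the complex, and at 20.2% and 66.8% in cKO, while *Sf3a1* went from 19.5% to 13.0%. The sum itself was 159 to 162 in WT and 179, 149.5 and 191 in cKO 1, 2 and 3, so that the groups overlapped in total but not in the share of any of the 3 genes. The exons of *Sf3a2* share bases with *Plekhj1* on the opposite strand, and reads of the 2 genes may likewise not have been separated.

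The promoters of the SF3A genes are shown because they have a motif in common although the genes moved in opposite directions. Each sequence covers 250 bases before and 50 after the start, from RefSeq on GRCm38.p6, 5′ to 3′ on the gene's strand, which is the plus strand for all 3 genes: *Sf3a1* at chr11:4160104-4160403, *Sf3a2* at chr10:80798485-80798784 and *Sf3a3* at chr4:124714611-124714910. Capitals mark CCGGAAG, the core that ETS factors bind, or its reverse complement CTTCCGG, and in *Sf3a1* also CCATCTT, the reverse complement of the YY1 motif.
Sf3a1: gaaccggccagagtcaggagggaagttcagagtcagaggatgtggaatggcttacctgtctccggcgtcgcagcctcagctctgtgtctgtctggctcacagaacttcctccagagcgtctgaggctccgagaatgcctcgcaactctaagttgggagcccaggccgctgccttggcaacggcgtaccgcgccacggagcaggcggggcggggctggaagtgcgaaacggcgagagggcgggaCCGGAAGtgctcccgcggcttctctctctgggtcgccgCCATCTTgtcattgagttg
Sf3a2: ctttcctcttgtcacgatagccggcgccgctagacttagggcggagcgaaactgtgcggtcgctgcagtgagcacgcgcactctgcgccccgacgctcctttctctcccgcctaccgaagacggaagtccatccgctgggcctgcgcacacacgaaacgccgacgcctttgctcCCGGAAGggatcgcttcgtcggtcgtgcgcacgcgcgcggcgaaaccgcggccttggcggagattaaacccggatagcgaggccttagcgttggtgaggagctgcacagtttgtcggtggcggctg
Sf3a3: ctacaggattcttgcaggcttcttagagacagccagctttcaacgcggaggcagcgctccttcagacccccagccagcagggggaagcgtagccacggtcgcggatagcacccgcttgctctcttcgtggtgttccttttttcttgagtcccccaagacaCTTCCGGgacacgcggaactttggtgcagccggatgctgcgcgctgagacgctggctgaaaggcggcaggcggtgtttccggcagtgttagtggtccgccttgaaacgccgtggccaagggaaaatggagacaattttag
The ETS motif lay 7 bases before the start of *Sf3a1*, 76 before that of *Sf3a2* and, reversed, 90 before that of *Sf3a3*, and the YY1 motif lay 32 bases after the start of *Sf3a1*. The RefSeq table held promoters for 38 of the 48 genes. CCGGAAG, searched on both strands, was found at 13 of the 38 (34.2%), at 21.3% of 7923 tested genes with a promoter and at 9.1% of all 27025 promoters. By call, it was found at 9 of 26 genes that rose, 2 of 6 that fell and 2 of 6 that were not called. Among the other motifs searched on both strands, TTCCCGC (E2F) was found at 5 of the 38 genes (13.2%, against 9.0% of tested genes and 4.7% of all promoters), CACGTG (the E-box) at 4 (10.5%, against 10.9% and 7.2%) and AAGATGG (YY1) at 3 (7.9%, against 8.0% and 6.5%). A match describes the letters only.

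In SF3B, the complex that holds the branch site, 4 of 6 genes rose and 1 fell. *Sf3b1*, which encodes the large subunit that encloses the branch site adenosine and is among the splicing targets of the study, had an FPKM of 161, 163 and 163 in WT and 197, 201 and 195 in cKO (log2 fold change 0.28, SE 0.06, adjusted p = 0.00666). But *Sf3b1* was called lower at the same FPKM total (-0.28, adjusted p = 0.029) and with quantile normalization (-0.21, adjusted p = 0.0305). *Sf3b5*, the smallest subunit, had 90.0, 89.0 and 85.7 in WT and 192, 170.3 and 205 in cKO (log2 fold change 1.09, SE 0.09, adjusted p = 0.000158). *Sf3b3*, the gene of the scaffold subunit SF3b130, had 58.4, 57.7 and 58.3 in WT and 94.0, 89.1 and 100.2 in cKO (log2 fold change 0.69). *Sf3b6*, whose protein lies next to the branch site, had 67.6, 68.9 and 75.0 in WT and 101, 111 and 119 in cKO (log2 fold change 0.64), and it was not called after correction for GC content and length. The log2 fold changes of these 3 genes were each above that of *Sf3b1*.

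*Sf3b4*, which encodes the RNA-binding subunit SF3b49, fell from 50.4, 50.7 and 49.0 in WT to 29.3, 31.1 and 33.2 in cKO (log2 fold change -0.67, SE 0.07, adjusted p = 0.000291). *Sf3b2*, whose protein binds SF3b49, had 113, 114 and 112 in WT and 120.0, 102 and 116 in cKO, with cKO 2 below WT and cKO 1 and 3 above it, and was not called (log2 fold change -0.01, adjusted p = 0.895); after correction for GC content and length its value was 0.34 with an adjusted p of 0.00945. *Phf5a*, the seventh SF3B gene, whose symbol falls outside the rule, had 49.2, 53.0 and 50.9 in WT and 78.6, 84.2 and 95.0 in cKO (log2 fold change 0.74, adjusted p = 0.000445). The share of *Sf3b4* in the summed FPKM of the 6 genes was 9.23% in WT and 4.24% in cKO (means of 3 libraries), and that of *Sf3b5* was 16.3% and 25.7%.

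**Figure D3:**
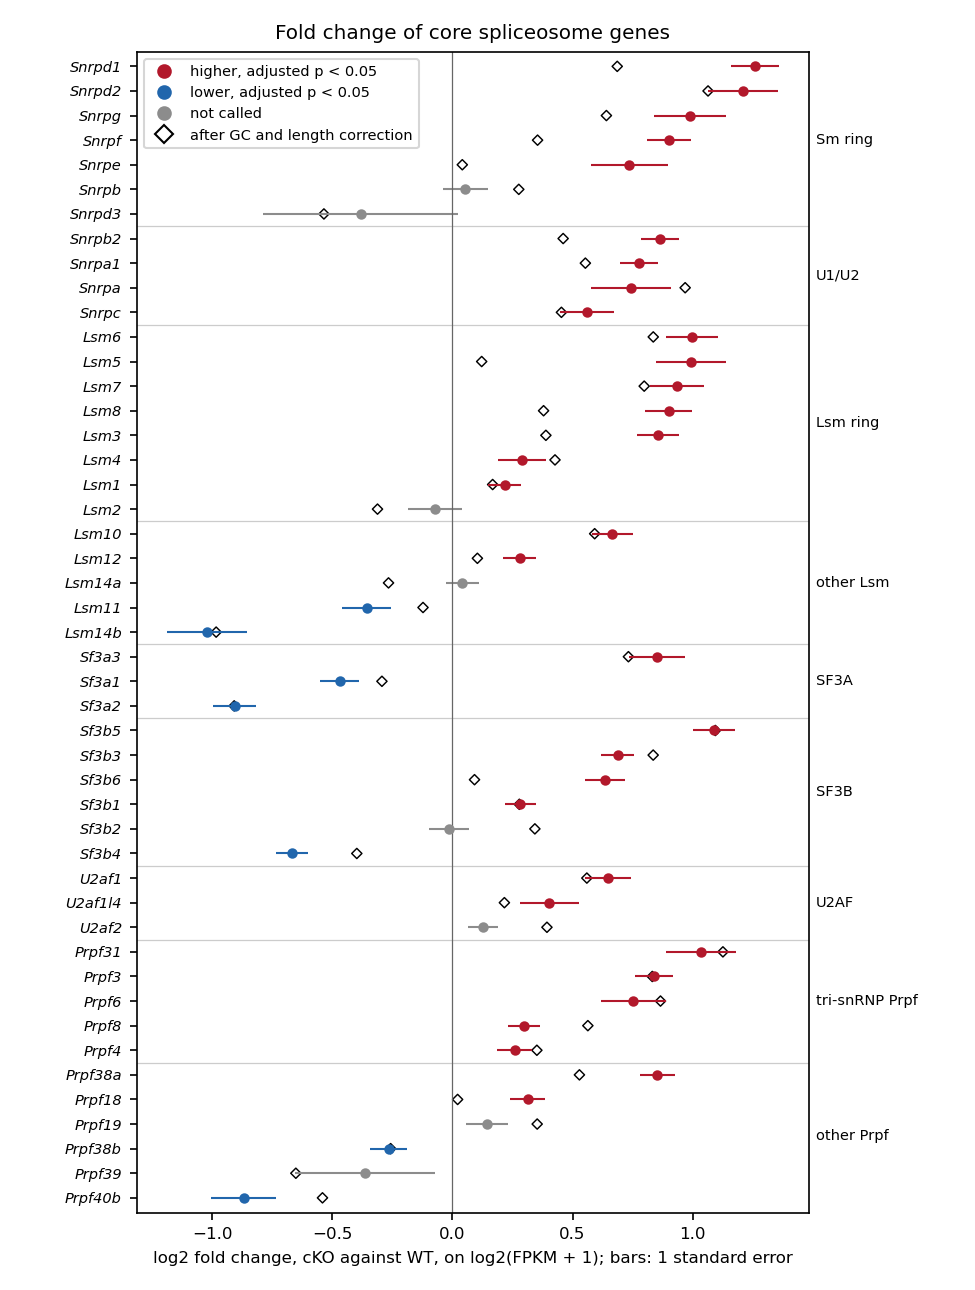
Log2 fold change of the core spliceosome genes (1 of the 48 is not drawn), cKO against WT, with 1 standard error (limma, filled points coloured by call) and the value after correction for GC content and length (open diamonds). Genes of one complex stand together, and SF3A spans from -0.91 (*Sf3a2*) to 0.85 (*Sf3a3*).

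The U2AF heterodimer recognises the 3′ splice site, and its small subunit rose while its large subunit was not called. *U2af1*, the small subunit that reads the AG, had an FPKM of 202, 198 and 202 in WT and 282, 316 and 350.5 in cKO (log2 fold change 0.65, SE 0.10, adjusted p = 0.00113), but it was not called at the same FPKM total (0.09, adjusted p = 0.439) or with quantile normalization (0.17, adjusted p = 0.096). *U2af2*, the large subunit on the pyrimidine tract and also named by the study as a splicing target, had 146, 149.7 and 147 in WT and 161, 161 and 162 in cKO. All cKO libraries of *U2af2* lay above WT by a small margin (log2 fold change 0.13, SE 0.06, adjusted p = 0.111). The gene was called lower at the same FPKM total (-0.43, adjusted p = 0.00272) and with quantile normalization (-0.30, adjusted p = 0.00485). After correction for GC content and length *U2af2* was called higher (0.39, adjusted p = 0.00188). *U2af1l4*, a paralogue of the small subunit, rose by a log2 fold change of 0.40 (adjusted p = 0.0221), was at -0.14 at the same FPKM total, lost its call without any 1 library other than cKO 2, and shares exon bases with *Gm49396* and *Psenen*. An FPKM value per gene sums the isoforms, so splicing changes within *Sf3b1* and *U2af2* were not analysed here.

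All 5 tri-snRNP genes with a *Prpf* symbol rose, by log2 fold changes of 0.26 to 1.03. *Prpf31*, whose protein stabilises the U4/U6 particle, had an FPKM of 17.4, 17.4 and 17.7 in WT and 43.8, 28.9 and 39.5 in cKO (log2 fold change 1.03, SE 0.15, adjusted p = 0.000944), with cKO 2 the lowest of the 3. *Prpf3*, which encodes a U4/U6 protein, had 24.2, 23.8 and 23.7 in WT and 48.0, 41.1 and 42.0 in cKO (log2 fold change 0.84). *Prpf6*, the gene of the protein that bridges U5 and U4/U6, had 28.6, 30.3 and 29.8 in WT and 56.3, 40.5 and 56.7 in cKO (log2 fold change 0.75). Both again had cKO 2 as the lowest cKO library. *Prpf4*, the partner of *Prpf3*, had 9.28, 9.79 and 10.2 in WT and 11.0, 12.4 and 12.3 in cKO (log2 fold change 0.26, adjusted p = 0.0171), a call that was lost without WT 1 or WT 2. *Prpf8*, which encodes the U5 protein at the catalytic centre, rose by 0.30 (adjusted p = 0.00656). At the same FPKM total *Prpf4* and *Prpf8* both turned to -0.26, and *Prpf8* was called lower (adjusted p = 0.0156) while *Prpf4* was not (adjusted p = 0.0738). At that scaling *Prpf3* and *Prpf31* were still called higher and *Prpf6* was not (0.20, adjusted p = 0.0867).

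The other 7 *Prpf* genes, which serve different steps, were divided into 3 that rose, 2 that fell and 2 that were not called. This division is near that of all tested genes, of which 35.8% rose and 29.8% fell. *Prpf38a*, whose protein joins before the spliceosome is activated, had an FPKM of 41.8, 39.1 and 40.9 in WT and 73.1, 70.1 and 79.5 in cKO (log2 fold change 0.85, SE 0.07, adjusted p = 0.000183). Its paralogue *Prpf38b* had 101, 106 and 104 in WT and 85.1, 94.1 and 79.6 in cKO (log2 fold change -0.27, adjusted p = 0.0188), a call that was lost without any 1 of the 3 WT libraries. *Prpf40b*, the least abundant of the 48 genes, had 1.41, 1.88 and 1.57 in WT and 0.381, 0.694 and 0.25 in cKO (log2 fold change -0.87, adjusted p = 0.00145), which stands for about 45 to 60 fragments per WT library and 7 to 22 per cKO library. With a pseudocount of 0.1 in place of 1 its log2 fold change was -1.74, and its mean FPKM in cKO was 0.272 of that in WT. *Prpf40b* reached the FPKM minimum of 1 in the WT libraries only. It was thus kept through the genotype in which it is high, and the filter favoured its fall. *Prpf18*, a factor of the second catalytic step, rose by 0.31, but was called lower at the same FPKM total (-0.23, adjusted p = 0.0357). After correction for GC content and length *Prpf18* was not called (0.02). *Prpf19*, the ubiquitin ligase of the activated spliceosome, had 16.7, 17.8 and 17.4 in WT and 18.4, 21.9 and 17.6 in cKO and was not called (log2 fold change 0.14, adjusted p = 0.186). It was called lower at the same FPKM total (-0.39, adjusted p = 0.043) and higher after correction for GC content and length (0.35, adjusted p = 0.0127). *Prpf39*, a U1-associated gene whose exons share bases with *Fkbp3* on the opposite strand, had 20.1, 20.2 and 20.5 in WT and 13.0, 26.9 and 10.7 in cKO 1, 2 and 3.

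*Prpf39* and *Snrpd3* followed the same pattern over libraries, with cKO 2 above every WT library and cKO 1 and 3 below every one. This pattern was seen at 403 of the 10326 tested genes (3.9%) and its reverse, as at *Sf3b2*, at 261. With the further condition that cKO 2 be at least 2-fold above both other cKO libraries, it was seen at 28 genes, of which *Snrpd3* and *Prpf39* were 2. Without cKO 2 the log2 fold change of *Prpf39* was -0.73 (adjusted p = 0.000397) in place of -0.36 (adjusted p = 0.301). More widely, the cKO libraries were spread further than the WT libraries at 44 of the 48 genes, as the ratio of highest to lowest. Among the 33 genes that rose, cKO 3 was the highest cKO library at 22 and cKO 2 the lowest at 19. The shares over all tested genes were not counted, so neither pattern is shown to be particular to these genes. Single-transcript genes at large also differed more between cKO libraries (mean chi-square 33.0 to 75.4) than between WT libraries (1.45 to 1.58). The FPKM total was likewise highest in cKO 3 (850548) and lowest in cKO 2 (701396) among the cKO libraries.

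The ratios between 4 pairs of partner genes, each pair from one particle or family, were compared within each library, which removes any scaling common to both genes. The ratio of *Sf3a2* to *Sf3a3* was 1.03, 0.983 and 1.10 in WT and 0.332, 0.321 and 0.256 in cKO, a difference of -1.79 on the log2 scale (SE 0.13). The ratio of *Sf3b5* to *Sf3b1* was 0.558, 0.546 and 0.527 in WT and 0.979, 0.846 and 1.05 in cKO, a log2 difference of 0.81 (SE 0.10). In both, the groups were far apart. The nuclear to cytoplasmic pair *Lsm8* to *Lsm1* had a ratio of 7.86, 7.68 and 7.51 in WT and 11.1, 12.2 and 13.5 in cKO, a log2 difference of 0.67 (SE 0.08), which was 0.21 after correction for GC content and length. The ratio of *U2af1* to *U2af2* was 1.39, 1.32 and 1.38 in WT and 1.75, 1.97 and 2.16 in cKO, a log2 difference of 0.52 (SE 0.09), which was 0.17 after that correction. None of the 4 ratios overlapped between the genotypes, and each gave p = 0.1 in an exact two-sided permutation test (n = 3 per group), the smallest p that 3 against 3 allows. For *Sf3a2* to *Sf3a3* this outcome was fixed by the single genes, which lay below and above WT in every cKO library. Other pairs were not compared, so the separation is not shown to be particular to these 4 and adds no support to the single-gene values.

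**Figure D4:**
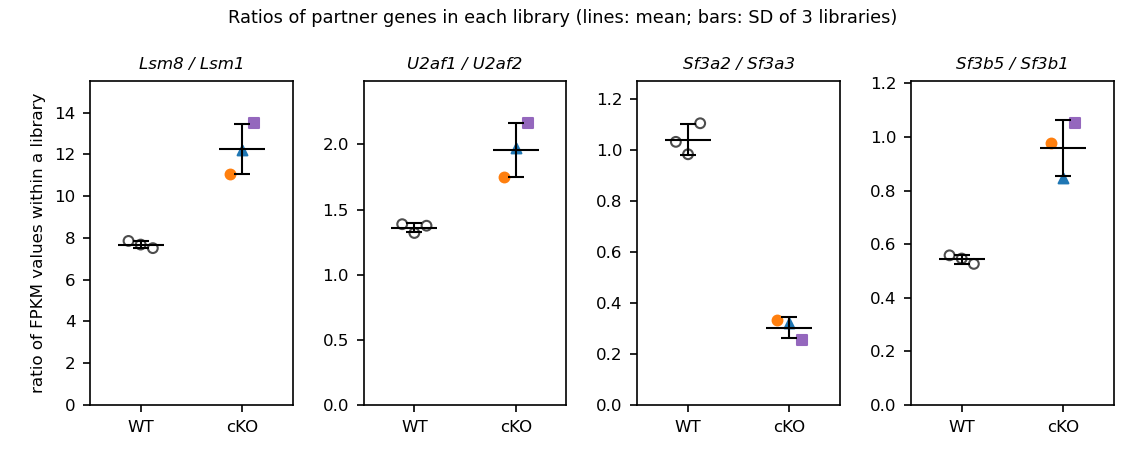
Ratio of the FPKM of 2 partner genes within each library, with the mean (line) and SD (bars) of the 3 libraries of a genotype. *Sf3a2* to *Sf3a3* drops from 0.983 to 1.10 in WT to 0.256 to 0.332 in cKO, and the other 3 ratios are higher in every cKO library than in any WT library.

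Transcript length and GC content moved with the changes. Over all 10245 tested genes with an annotated length, the Spearman correlation of the log2 fold change was -0.25 with length and -0.35 with GC content, and over the 48 genes it was -0.29 and -0.37. These correlations are across genes of the same 6 libraries and are given as a description. Of the 15 core spliceosome genes with transcripts under 1000 nt, 13 rose and 1 fell (median log2 fold change 0.66), and of the 33 longer ones 20 rose and 6 fell (median 0.28). The shares over all tested genes of these lengths were not counted, so this split is not shown to be particular to the core spliceosome genes. After each library was corrected for both properties, the medians of the short and long genes were 0.38 and 0.35. The correction left 30 of the 48 genes higher and 8 lower, against 32.6% and 27.1% of all tested genes. It removed the calls of *Lsm1*, *Lsm5*, *Lsm11*, *Lsm12*, *Prpf18*, *Sf3b6*, *Snrpe* and *U2af1l4*, and it called *Prpf19*, *Sf3b2*, *Snrpb* and *U2af2* higher and *Lsm2* and *Lsm14a* lower. Some genes moved much with it: *Snrpe* went from 0.73 to 0.04, *Lsm5* from 0.99 to 0.12, neither of them called any longer, and *Snrpd1* from 1.26 to 0.69. *Sf3a2*, *Sf3a3*, *Sf3b5* and *Prpf31* were at -0.91, 0.73, 1.09 and 1.13 after it, close to their uncorrected values.

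**Figure D5:**
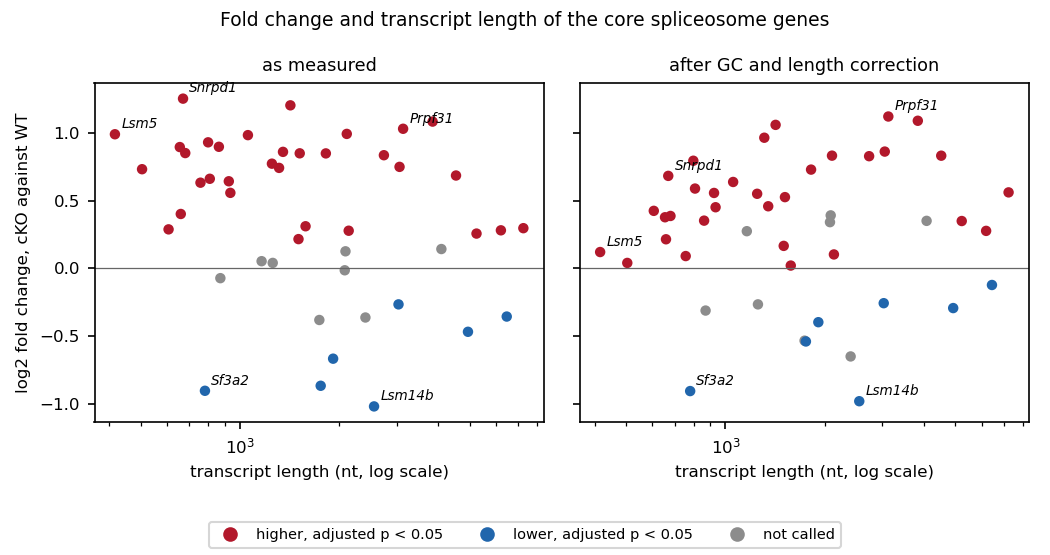
Log2 fold change of the core spliceosome genes (1 of the 48 is not drawn) against transcript length (nt, log scale), as measured (left) and after correction for GC content and length (right), coloured by the call on the uncorrected values. On the left 13 of the 15 genes under 1000 nt are among the genes that rose; on the right the short genes, such as *Lsm5* at 0.12, come down toward the longer ones.

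Several core spliceosome genes, short ones among them, have pseudogene copies in the genome whose reads could be shared with them. By alignment of transcripts, 15 of the 48 genes had a pseudogene copy at 95% identity or more over at least 200 bases, among them *Snrpg*, *Snrpe*, *Snrpd1*, *Snrpd2*, *Lsm5*, *Lsm6* and *U2af1*, and their values are uncertain to that extent. Of these 15, 12 rose and 1 fell. Of the 33 genes without such a copy, 21 rose and 6 fell. Of all tested genes, with or without copies, 35.8% rose and 29.8% fell. Copies of the other tested genes were not sought, so the part of shared reads in these counts was not tested. In all, 8 genes share exon bases with another coding gene: besides *Snrpd3*, *Sf3a2*, *Prpf39* and *U2af1l4* these are *Snrpa* with *BC024978*, *Snrpf* with *Ccdc38* and *Sf3b3* with *Cog4* on the opposite strand, and *Snrpa1* with *Gm45213* on the same strand.

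Other genes of the splicing pathway were read from 5 lists of 73 symbols. The lists include factors that assemble the Sm ring and do not cover all splicing factors. Of the 71 that were tested, 43 rose, 11 fell and 17 were not called. Of all tested genes, 35.8% rose and 29.8% fell. The median log2 fold change was 0.48 over the 71 genes, 0.51 over the core genes and 0.04 over all tested genes. At the same FPKM total 11 of the 71 rose and 29 fell, against 8.74% and 59.9% of all tested genes. Of the 71, 4 were called with an absolute log2 fold change of 1 or more. *Snrnp35*, a protein of the minor U11/U12 particle, had an FPKM of 10.9, 11.5 and 9.61 in WT and 34.8, 18.5 and 32.3 in cKO (log2 fold change 1.29, adjusted p = 0.00223). *Ppih*, a cyclophilin that binds Prpf4 in the tri-snRNP, had 60.2, 56.0 and 57.8 in WT and 114, 123 and 151 in cKO (log2 fold change 1.13, adjusted p = 0.000267). *Plrg1*, of the Prp19 complex, had 33.4, 32.7 and 34.1 in WT and 83.5, 60.4 and 80.7 in cKO (log2 fold change 1.13, adjusted p = 0.000421). These 3 rose, with every cKO library above WT. *Sf1*, whose protein binds the branch site together with U2AF before U2 arrives, fell from 126, 129 and 126 in WT to 62.5, 60.9 and 58.0 in cKO (log2 fold change -1.06, SE 0.06, adjusted p = 9.05e-05). *Snrnp70*, the U1 gene that stands beside *Snrpa* and *Snrpc* in the particle, fell from 313, 325 and 313 to 203, 215 and 183 (log2 fold change -0.66, adjusted p = 0.000648), whereas *Snrpa* and *Snrpc* rose.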

How the data were processed

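mRNA-seq libraries of DP thymocytes, 3 WT and 3 cKO, were analysed. The authors made directional libraries from poly(A) RNA, sequenced both ends on a NovaSeq instrument, aligned the trimmed reads to mm10 by Tophat, and deposited the FPKM that Cufflinks gave for each gene symbol in a library. The versions of Tophat and Cufflinks, the annotation and the strand setting are not given in the sources used here. The authors tested counts with DESeq2, whereas the values used here are FPKM, so the test differs from theirs.

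Groups came from the sample titles. The 48 genes and all gene lists were chosen with earlier results of these data known. Values were scaled with median-of-ratios size factors (1.00 to 1.01), a minimum FPKM of 1 in 3 or more libraries left 10326 genes, and their log2(FPKM + 1) was fitted by genotype with limma 3.58.1 (lmFit, eBayes with trend) in R 4.3.3, with Benjamini-Hochberg adjustment at 0.05. The log2(FPKM + 1) scale understates the change of low genes. On simulated data for this comparison of 10326 genes, 86 of 100 genes with a 2-fold change and 97 of 100 with a 4-fold change were recovered. The simulated noise was normal, with the same spread in both genotypes, and only these genes were changed. It therefore does not test the unequal spread and the widespread changes of the real libraries. Depth was estimated from single-transcript genes longer than 1000 nt with an assumed fragment length of 200 nt, and its estimates and the FPKM values carry counting error besides the spread between libraries. Symbols were matched to GENCODE mouse release 21 (22110 of 23183 by symbol and 662 by synonym), which gave length and GC content, as medians over protein-coding transcripts, for all 48 genes. Copies were sought with blastn 2.17.0. Partner ratios were compared by an exact permutation test.

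Values in every library are given for called genes with an absolute log2 fold change of 0.5 or more, for all called lower, for the gene nearest 0 in each group and for *Sf3b1* and *U2af2*; *Snrpd3* and *Prpf39* were added after their values were seen. Genes outside the rule are named where they were called at an absolute log2 fold change of 1 or more, with *Phf5a*, *Snrnp70* and *Nsrp1*. The values of 1 of the 48 genes, counted with the others, are not reported here. Alternatives were a pseudocount of 0.1, no filter, quantile normalization, the same FPKM total, a replicate block, no trend, WT counted as 1 sample, correction for GC content and length by natural splines with 5 degrees of freedom, and each library left out. For the partner ratios, the last correction and the block were chosen after seeing the data.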

Additional observations from a re-analysis of the deposited data

How the results depend on the processing

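The scaling and the counting of WT moved the counts. The same FPKM total gave 16 core genes higher and 20 lower in place of 33 and 7, 11 and 29 of the other splicing genes in place of 43 and 11, and 902 and 6181 of all tested genes in place of 3693 and 3073. With WT counted as 1 sample these counts were 14 and 2, 17 and 4, and 744 and 901. After correction for GC content and length, the log2 differences of *Lsm8* to *Lsm1* and *U2af1* to *U2af2* were 0.21 and 0.17 in place of 0.67 and 0.52. Quantile normalization gave 11 core genes lower. At the same FPKM total the log2 fold change turned to -0.30 for *Lsm1*, -0.27 for *Lsm4*, -0.23 for *Prpf18*, -0.39 for *Prpf19*, -0.26 for *Prpf4* and for *Prpf8*, -0.28 for *Sf3b1*, -0.51 for *Snrpb*, -0.14 for *U2af1l4*, -0.43 for *U2af2*, -0.26 for *Lsm12* and -0.51 for *Lsm14a*. With quantile normalization it turned to -0.089 for *Lsm4*, -0.21 for *Sf3b1*, -0.43 for *Snrpb*, -0.30 for *U2af2* and -0.28 for *Lsm14a*, and after correction for GC content and length to 0.34 for *Sf3b2* and -0.27 for *Lsm14a*. Genes called lower at the same FPKM total included *Lsm1*, *Lsm4*, *Prpf8*, *Prpf18*, *Prpf19*, *Sf3b1*, *Snrpb* and *U2af2*. With quantile normalization they included *Sf3b1*, *Snrpb* and *U2af2*. The cause was not tested. Leaving out 1 library gave 28 to 34 core genes higher and 5 to 9 lower, and turned *Lsm2* to 0.053 without cKO 1 (range -0.16 to 0.053), *Sf3b2* to 0.063 without cKO 2 (range -0.065 to 0.063) and *Snrpb* to -0.025 without cKO 3 (range -0.025 to 0.13), none of which was called. No core gene changed direction with a pseudocount of 0.1, no filter or no trend, and 1 call was lost among these, that of *Lsm4* without the filter.

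Same-numbered WT and cKO libraries did not deviate together (correlations of -0.02, 0.04 and 0.03), so the numbers were not taken to pair them. A fit with the replicate number as a block gave 31 core genes higher and 7 lower, with *Lsm1* and *Lsm4* no longer called, and the log2 differences of the partner ratios kept their direction. At the estimated depth, *Prpf40b* rests on the fewest fragments, and the partner ratios cannot pass 0.05 with 3 libraries per group.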

Other observations

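Among the 28 genes at which cKO 2 lay above every WT library and at least 2-fold above cKO 1 and cKO 3, which both lay below every WT library, *Snrpd3* had a ratio of cKO 2 to the higher of the other 2 of 2.97, and 2 genes had a higher one. *Snhg9*, a snoRNA host gene, had an FPKM of 129, 79.0 and 87.3 in WT 1, 2 and 3 and of 14.4, 180.1 and 49.6 in cKO 1, 2 and 3 (ratio 3.63), and *Mir17hg*, the host of the miR-17 cluster, had 5.47, 5.70 and 6.25 in WT and 2.48, 7.61 and 2.36 in cKO (ratio 3.07). These genes were chosen after their values were seen, and no test was run on them.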
